A study of Saccharomyces cerevisiae with 6 samples.

Results

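ATP1-111 cells of budding yeast (Saccharomyces cerevisiae) were measured 27 h after they had lost the mitochondrial genome (mtDNA), against ATP1-111 cells that had kept it. The data are 1 of the 6 columns of values in the series, and all open reading frames (ORFs) with a value in that column were taken, 6176 of the 6198 ORFs with a value anywhere in the series. The genotype is written ATP1-111/ATP1-111, the notation of a homozygous diploid, and the strain is UCC3980. ATP1-111 is a dominant allele of ATP1, which encodes the alpha subunit of the F1 part of the ATP synthase. Ethidium bromide, a dye that binds DNA and blocks mtDNA replication, was used at 30 µg/ml for 6 h to remove mtDNA, and the labels name no such treatment for the cells with mtDNA, so dye exposure and mtDNA loss cannot be told apart. WT cells (strain UCC1899) received the same treatment and were measured after 3, 11, 19 and 27 h against WT cells with mtDNA. In the remaining strain (UCC3970), cells moved from 50 to 2 nM estradiol, which represses the iron-sulfur assembly gene NAR1, were compared after 27 h with cells left at 50 nM. All cultures grew at low density in YEPD, a rich glucose medium.

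Each value is a ratio, cells without mtDNA over cells of the same strain with mtDNA, read from 2-colour arrays on which both RNAs compete for the same spots. The ATP1-111 ratios were the authors' averages over 5 arrays, 3 biological replicates in one dye orientation and 2 in the other, while the other columns averaged 6 arrays. No spread between replicates came with the averages, so the ratios are given without replicate errors. A single spot of the ATP1-111 column had an SD of 0.229 on the log2 scale, as read from 13 ORFs spotted 2 times, and the number of arrays limits the precision further. Both RNAs carried the ATP1-111 allele, so the ATP1 ratio (0.919) does not check the genotype. The array had 0 rows for genes encoded in mtDNA, so no transcript here shows that mtDNA was gone.

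The mitochondrial genome of yeast encodes core subunits of the respiratory chain and of the ATP synthase, so cells without it live by fermentation. Their inner membrane potential can no longer come from respiration, and import of nuclear-encoded proteins, including those of iron-sulfur cluster assembly, depends on that potential. Dominant alleles of the F1 part of the ATP synthase are known to let cells without mtDNA grow better. The best studied transcriptional responses to mtDNA loss are the Aft1 and Aft2 iron regulon, which answers low iron-sulfur cluster synthesis with iron uptake, the retrograde response, in which Rtg1 and Rtg3 raise genes for the first steps of the citric acid cycle, and the Pdr1 and Pdr3 drug efflux genes.

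The ATP1-111 profile was narrow. Its median ratio was 0.989, and 83.3% of its ORFs lay within 1.2-fold of no change, against 45.9% in WT cells at 27 h. The median absolute deviation of log2 ratios was 0.114 in ATP1-111 cells, against 0.149, 0.187, 0.240 and 0.280 in WT cells at 3, 11, 19 and 27 h. In ATP1-111 cells 43 ORFs (0.696% of 6176) reached 2-fold in the higher direction and 23 (0.372%) in the lower, against 318 (5.13%) and 175 (2.83%) in WT cells at 27 h. At a limit of 1.5-fold, 122 ATP1-111 ORFs (1.98%) were higher and 86 (1.39%) lower. The ratios ran between 0.032 for RRG1 and 8.63 for ARN2. Across the genome the column was level, with medians of the 16 nuclear chromosomes between -0.03 and 0.02 on the log2 scale and medians of the 32 chromosome arms between -0.04 and 0.03.

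The spots of non-yeast genes in the ATP1-111 column stood apart from those of the other columns. All 12 spots of non-yeast genes with a value had ratios above 1, between 1.04 and 6.03 with a median of 1.98, whereas the median of these spots lay between 0.679 and 1.14 in the other 5 columns. The 7 buffer-only spots of ATP1-111 had a median of 1.03 and a highest ratio of 8.29, against medians between 0.665 and 1.13 and highest ratios between 1.20 and 5.10 in the other 5 columns, the last in WT cells at 27 h. Whether RNA was added for the non-yeast spots is not given in the sources used here, and the part of these spots in the results below was not tested. Spot brightness came with none of the values, so a faint ORF cannot be told from a bright one.

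**Figure D1:**
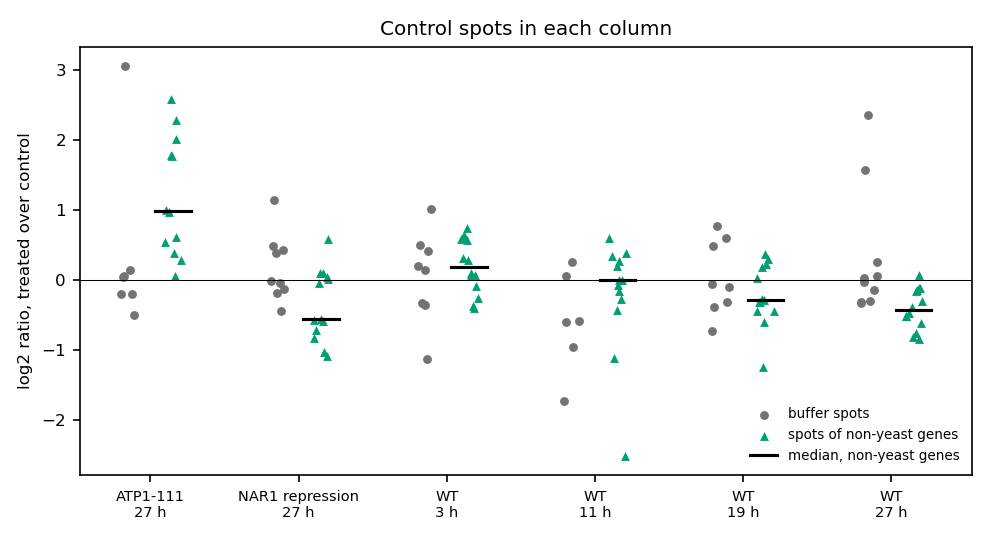
Log2 ratios (vertical axis) of the control spots of the array in each of the 6 columns, with buffer spots as grey circles, spots of non-yeast genes as green triangles and the median of the triangles as a bar. In ATP1-111 all 12 non-yeast spots lie above 0 and 1 buffer spot reaches a ratio of 8.29.

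Siderophore iron uptake had the highest median ratio of the 50 gene lists in ATP1-111 cells. All 7 of them were at least 2-fold higher after mtDNA loss, with a median log2 ratio of 2.31 against -0.02 over all ORFs. In WT cells at 27 h the same 7 had a median of 4.70. ARN2, a transporter of iron bound to siderophores, had a ratio of 8.63 in ATP1-111 cells, against 2.51, 19.4, 63.4 and 74.1 in WT cells at 3, 11, 19 and 27 h. FIT3, a mannoprotein of the cell wall that helps to hold siderophore iron, had a ratio of 8.32 in ATP1-111 cells, against 2.11, 21.3, 36.7 and 96.8 in WT cells at the same times. The ATP1-111 values of both genes therefore lay between the WT values at 3 and 11 h. The transporters ARN1, SIT1 and ENB1 had ratios of 6.43, 4.96 and 2.82 in ATP1-111 cells, against 43.1, 16.6 and 14.4 in WT cells at 27 h. FIT2, the neighbour of FIT3 on chromosome 15, had a ratio of 3.18 in ATP1-111 cells and 5.51 in WT cells at 27 h.

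FIT1, the third of these mannoproteins, rose in ATP1-111 cells, with a ratio of 3.21 (log2 1.68, SE 0.120, adjusted p = 0.0206, limma). In WT cells the FIT1 ratio was 1.69, 3.92, 11.2 and 26.1 at 3, 11, 19 and 27 h, and the ATP1-111 value was 3.05 lower than the fitted WT level on the log2 scale (difference -3.05, SE 0.156, adjusted p = 0.0102, limma). Tests took their spread from how far the 4 WT columns lay from a line fitted over time, with the ATP1-111 column assumed to vary in the same way, and Benjamini-Hochberg adjustment over the 6151 ORFs with values in all 6 columns. Of those ORFs, 4 were higher (0.065%) and 3 lower (0.0488%) against no change in ATP1-111 cells, and 225 and 274 at an unadjusted p under 0.05. In the contrast with WT cells, 190 ORFs were higher (3.09%) and 284 lower (4.62%) in ATP1-111, a split of 5 and 26 once the columns were scaled to the same spread. Calls rested on the WT column at 19 h. Without it none of the 7 ORFs called against no change passed (adjusted p between 0.0532 and 0.0951, limma), and the contrast with WT called 0 in either direction (678 and 749 at an unadjusted p under 0.05), and ordinary least squares likewise left 0 calls in both. Without WT 3 h, 11 h or 27 h the counts against no change were 27 and 14, 4 and 5, and 2 and 3, and those against WT 367 and 465, then 93 and 176, then 23 and 61.

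The reductive iron uptake genes followed with smaller ratios. Their list of 14 held ferric reductases, the high-affinity ferroxidase and permease and vacuolar iron export genes, and also CCC2 and the low-affinity transporter FET4. Of the 14, 13 lay above 1 in ATP1-111 cells, against 46.4% of all ORFs. In ATP1-111 cells 3 were at least 2-fold higher, with a median log2 ratio of 0.63. In WT cells at 27 h all 14 lay above 1 (44.2% of all ORFs did), 11 were at least 2-fold higher and the median was 1.72. FRE2, a plasma membrane ferric reductase, rose to a ratio of 4.19 in ATP1-111 cells (log2 2.07, SE 0.139, adjusted p = 0.0179, limma), against 1.47, 2.50, 6.02 and 10.7 in WT cells at 3, 11, 19 and 27 h. FET3, the multicopper ferroxidase, rose to 3.36 (log2 1.75, SE 0.147, adjusted p = 0.0415, limma), against 2.53, 3.94, 7.14 and 8.83 in WT cells. Both lay below the WT ratios at 19 and 27 h. With WT time in log2 hours the calls of all 3 iron genes were lost (adjusted p = 0.348 for FIT1, 0.161 for FRE2 and 0.0765 for FET3, limma). FET3 also missed the threshold with a curved WT time course (adjusted p = 0.0508) and without WT 11 h (0.0662), and all 3 missed it without WT 27 h (0.055 each, limma). FTR1, the permease that works with Fet3, had a ratio of 2.32 in ATP1-111 cells and 4.11 in WT cells at 27 h and did not pass either test.

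Members of this list differed in how much of the WT ratio they kept. CCC2, which loads copper onto Fet3, had a ratio of 1.78 in ATP1-111 cells and 2.33 in WT cells at 27 h. The reductase FRE4 had a ratio of 1.56 in ATP1-111 cells and 1.02 in WT cells. At the other end, the low-affinity iron transporter FET4 had 1.24 in ATP1-111 cells against 5.63 in WT cells. The vacuolar permease FTH1 had 1.44 in ATP1-111 cells against 4.75 in WT cells, and the reductase-like FRE5 had 0.915 in ATP1-111 cells against 4.09 in WT cells. All 3 passed the contrast with WT, as did FRE2, FET3, FRE6 and FET5, and over the list 7 of 14 were lower in ATP1-111 than in WT, against 4.62% of all ORFs, and 0 higher. For siderophore uptake these counts were 5 of 7 and 0.

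Iron genes outside uptake stayed closer to 1. The 15 measured genes for iron sensing, storage and sparing had a median log2 ratio of 0.18 in ATP1-111 cells and 0.17 in WT cells at 27 h. TIS11, an RNA-binding protein that speeds the decay of transcripts for iron-using proteins, had a ratio of 2.05 in ATP1-111 cells and 4.95 in WT cells. CCC1, the vacuolar iron importer, had 0.906 in ATP1-111 cells against 0.470 in WT cells, a difference that passed the test. ISU1, the scaffold on which clusters are built in mitochondria, had a ratio of 1.51 in ATP1-111 cells, against 4.08 in WT cells. The frataxin gene YFH1 had 0.734 in ATP1-111 cells and 0.400 in WT cells. All 8 cytosolic assembly genes lay below 1 in ATP1-111 cells, as did 53.3% of all ORFs, between 0.726 for DRE2 and 0.993 for CIA2, with a median of -0.06. Once the column was centred on its median CIA2 lay above 0 (0.01 on the log2 scale) and 7 of the 8 below. NAR1 itself had a ratio of 0.979.

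**Figure D2:**
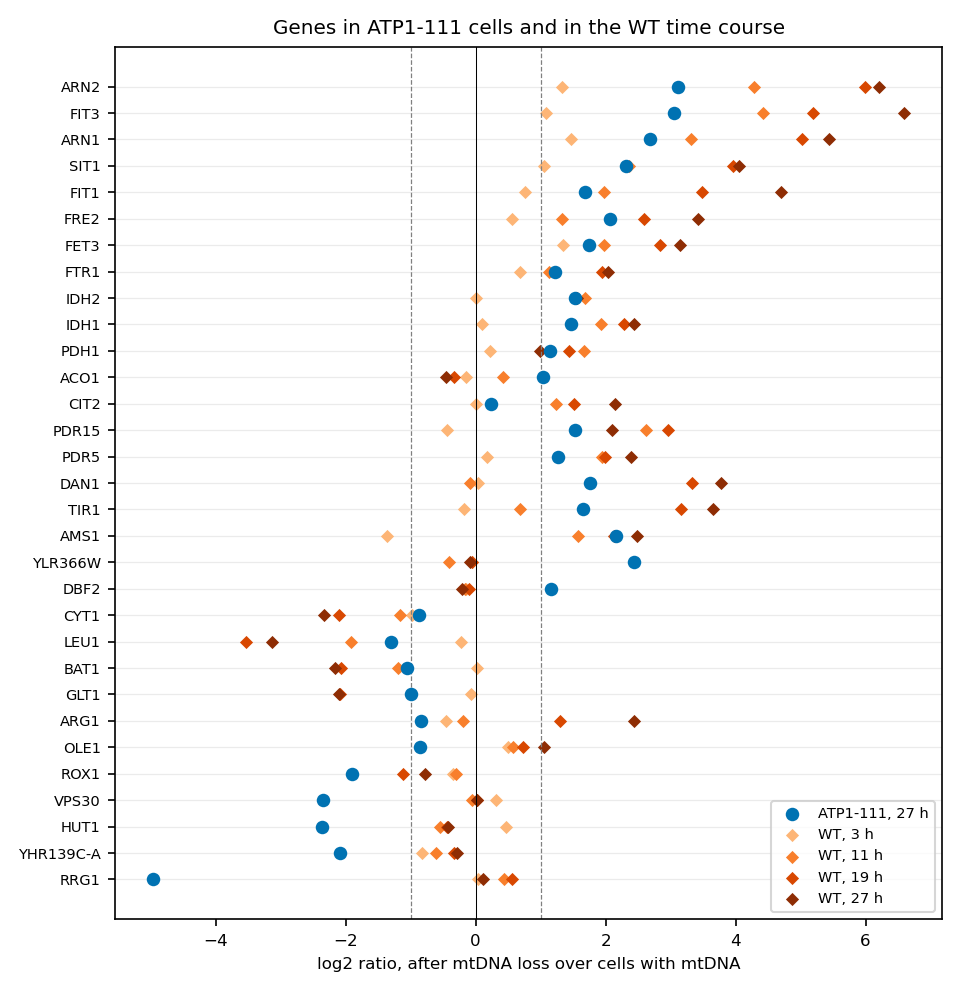
Log2 ratios (horizontal axis) of genes named in the text, 1 gene per line, with the ATP1-111 value as a blue circle and the WT values at 3, 11, 19 and 27 h as orange to brown diamonds. Dashed lines mark 2-fold. The siderophore genes ARN2, FIT3 and ARN1 lie furthest to the right, ARG1 and OLE1 lie on the opposite side of 0 from the WT values at 27 h, and RRG1 lies alone at a ratio of 0.032.

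IDH1, IDH2 and ACO1, of the first steps of the citric acid cycle, had ratios above 2 in ATP1-111 cells, while CIT1 and CIT2, of citrate synthesis, were nearer to 1, and none of the 8 retrograde targets passed the test against no change (adjusted p between 0.342 for ACO1 and 0.875 for CIT3, limma). All 8 lay above 1 in ATP1-111 cells, against 46.4% of all ORFs, and 4 were at least 2-fold higher, with a median log2 ratio of 0.67 in ATP1-111 cells and 1.05 in WT cells at 27 h. IDH2, a subunit of mitochondrial isocitrate dehydrogenase, had a ratio of 2.89 in ATP1-111 cells, against 1.01, 3.22, 2.91 and 2.96 in WT cells at 3, 11, 19 and 27 h. Its partner subunit IDH1 had 2.77 in ATP1-111 cells, against 1.07, 3.81, 4.87 and 5.39 in WT cells. The log2 difference of ATP1-111 minus the fitted WT level was -0.35 for IDH2 (SE 0.55) and -1.32 for IDH1 (SE 0.52). These SEs measure how far the 4 WT columns lay from a straight line, not the spread between replicates. The ATP1-111 ratio of IDH1 lay below the WT ratios at 11, 19 and 27 h. YOR135C, the neighbour of IDH2, had a ratio of 2.08 in ATP1-111 cells and 2.23 in WT cells at 27 h.

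ACO1, the mitochondrial aconitase and itself an iron-sulfur enzyme, had a ratio of 2.06 in ATP1-111 cells, against 0.902, 1.34, 0.795 and 0.727 in WT cells at 3, 11, 19 and 27 h. It was above 1 in ATP1-111 cells and below 1 in WT cells at the last 2 times, and the difference of 1.42 (SE 0.35) had an adjusted p of 0.0687 (limma). CIT2, the peroxisomal citrate synthase and the classic marker of the retrograde response, had a ratio of 1.18 in ATP1-111 cells, against 1.00, 2.35, 2.86 and 4.40 in WT cells, and it was the only retrograde target of the 8 that passed the contrast with WT. CIT1, the mitochondrial citrate synthase, had 1.23 in ATP1-111 cells and 1.31 in WT cells. PDH1 and CIT3, which act in propionate breakdown, had 2.21 and 1.13 in ATP1-111 cells, against 1.98 and 1.86 in WT cells. DLD3, a lactate dehydrogenase of the cytosol, had 1.21 in ATP1-111 cells and 2.17 in WT cells. The 7 regulators of the pathway, RTG2 and RTG3 among them, had ratios between 0.704 and 1.07 in ATP1-111 cells. The median of the 8 targets was 0.30 when the gene with the largest ratio was left out, since 4 genes lay above 2-fold and the other 4 between 1.13 and 1.23.

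The lists for the citric acid cycle and the respiratory chain had medians below 0 in ATP1-111 cells, nearer to 0 than in WT cells. Of 15 genes for the citric acid cycle and succinate dehydrogenase, 10 lay below 1 in ATP1-111 cells, near the 53.3% of all ORFs. Their median was -0.04 in ATP1-111 cells and -0.55 in WT cells at 27 h. The lowest were the succinate dehydrogenase genes SDH1 and SDH2, with ratios of 0.683 and 0.672 in ATP1-111 cells, against 0.293 and 0.390 in WT cells. KGD1 and KGD2, of the 2-oxoglutarate dehydrogenase complex, had 0.967 and 0.939 in ATP1-111 cells, against 0.442 and 0.473 in WT cells.

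For the cytochrome bc1 complex and cytochrome c, 9 of 11 genes lay below 1 in ATP1-111 cells, against 53.3% of all ORFs. Their median was -0.42 in ATP1-111 and -1.06 in WT cells. CYT1, cytochrome c1, was the lowest, with a ratio of 0.544 in ATP1-111 cells, against 0.508, 0.448, 0.234 and 0.199 in WT cells at 3, 11, 19 and 27 h, so that its ATP1-111 value lay nearest to the earliest WT value. The Rieske iron-sulfur protein gene RIP1 had 0.707 in ATP1-111 cells and 0.318 in WT cells, while CYC1, the main cytochrome c, had 1.11 in ATP1-111 cells and 0.638 in WT cells. The 9 nuclear genes for cytochrome c oxidase split into 2 sets. COX4, COX5A, COX6, COX12 and COX13 had ratios between 0.667 and 0.751 in ATP1-111 cells, while COX7, COX8, COX9 and COX5B had ratios between 1.05 and 1.23, and the median of the list was -0.41 with COX4, the lowest, and -0.17 without it. In WT cells at 27 h the first 5 lay between 0.258 and 0.472. Over the bc1 and oxidase lists 8 of 20 genes were higher in ATP1-111 than in WT by the contrast, against 3.09% of all ORFs, and 0 were lower.

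The nuclear genes of the ATP synthase, the complex that carries the ATP1-111 change, were close to 1. Of 16 measured genes 14 lay below 1 in ATP1-111 cells, against 53.3% of all ORFs. Their median was -0.11 in ATP1-111 cells and -0.31 in WT cells at 27 h. The catalytic F1 genes ATP1 and ATP2 had 0.919 and 0.952 in ATP1-111 cells, against 0.796 and 1.04 in WT cells. INH1, which encodes the inhibitor of ATP hydrolysis by F1, was the lowest at 0.638 in ATP1-111 cells and 0.605 in WT cells. STF2, which helps to keep that inhibitor bound, had 0.931 in ATP1-111 cells and 1.87 in WT cells, and was the only gene of the list that passed the contrast with WT. Among the carriers that exchange ADP and ATP across the inner membrane, AAC1 had 0.736 in ATP1-111 cells, against 1.55 in WT cells, while PET9, the main one during growth, had 0.915 in ATP1-111 cells and 0.611 in WT cells.

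Of 24 genes for iron-sulfur enzymes 18 lay below 1 in ATP1-111 cells, against 53.3% of all ORFs, and 3 were at least 2-fold lower, against 0.372%, while 0 passed the test against no change. The list had a median of -0.23 in ATP1-111 cells and -0.81 in WT cells at 27 h, where 11 were at least 2-fold lower. LEU1, isopropylmalate isomerase of leucine synthesis, had a ratio of 0.404 in ATP1-111 cells, against 0.852, 0.264, 0.086 and 0.114 in WT cells at 3, 11, 19 and 27 h. GLT1, glutamate synthase, had 0.501 in ATP1-111 cells and 0.234 in WT cells, BIO2, biotin synthase, had 0.487 in ATP1-111 cells and 0.307 in WT cells, and ILV3, dihydroxyacid dehydratase, had 0.615 in ATP1-111 cells and 0.254 in WT cells. Each of these 4 lay between no change and the WT ratio at 27 h. The remaining gene past 2-fold, DNA2, a nuclease and helicase of DNA replication, did not, with 0.485 in ATP1-111 cells against 1.32, 1.17, 3.59 and 0.986 in WT cells at 3, 11, 19 and 27 h. Of the 6 members above 1 in ATP1-111 cells, the others besides ACO1 reached at most 1.09.

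Within branched-chain amino acid synthesis the paired transaminases lay on opposite sides of 1. BAT2, the cytosolic enzyme, had a ratio of 2.02 in ATP1-111 cells, against 0.631, 1.03, 1.87 and 1.85 in WT cells at 3, 11, 19 and 27 h. BAT1, the mitochondrial one, had 0.482 in ATP1-111 cells, against 1.01, 0.436, 0.239 and 0.224 in WT cells. OAC1, a mitochondrial carrier that exports the precursor of leucine, had 0.635 in ATP1-111 cells and 0.297 in WT cells. In all, 10 of the 12 genes of the pathway lay below 1 in ATP1-111 cells, against 53.3% of all ORFs. Their median was -0.33 in ATP1-111 cells and -0.68 in WT cells. The biotin genes also split, since BIO5, a transporter of a biotin precursor, had 2.06 in ATP1-111 cells and 12.9 in WT cells, while BIO2 was among the ORFs at least 2-fold lower.

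Arginine synthesis lay on opposite sides of no change in ATP1-111 cells and in WT cells at 19 and 27 h. Of 12 genes for arginine synthesis and use, 10 lay below 1 in ATP1-111 cells, against 53.3% of all ORFs. Their median was -0.41, whereas the WT median was -0.21, -0.12, 0.38 and 0.81 at 3, 11, 19 and 27 h. ARG1, argininosuccinate synthetase, had a ratio of 0.558 in ATP1-111 cells, against 0.729, 0.873, 2.47 and 5.41 in WT cells at 3, 11, 19 and 27 h. ARG56, which encodes acetylglutamate kinase and the reductase that follows it, had 0.598 in ATP1-111 cells and 2.68 in WT cells at 27 h. CPA1, which acts in carbamoyl phosphate synthesis, had 1.13 in ATP1-111 cells and 6.71 in WT cells. By the contrast, 6 of the 12 were lower in ATP1-111 than in WT, against 4.62% of all ORFs, and CAR2, which acts in arginine breakdown, was higher (1.28 in ATP1-111 and 0.493 in WT). The ATP1-111 ratios of the synthesis genes themselves did not pass the test against no change. Histidine synthesis, in comparison, lay below 1 in both, with 7 of 7 genes between 0.729 and 0.911 in ATP1-111 cells and medians of -0.30 in ATP1-111 cells and -0.39 in WT cells.

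Other ORFs on opposite sides of 1 in the genotypes included OLE1, the fatty acid desaturase, with a ratio of 0.552 in ATP1-111 cells against 1.40, 1.49, 1.65 and 2.06 in WT cells at 3, 11, 19 and 27 h. MAL11, an alpha-glucoside transporter, had 0.468 in ATP1-111 cells and 1.81 in WT cells at 27 h. REC8, a cohesin of meiosis, had 0.486 in ATP1-111 cells and 2.09 in WT cells, and GIP1, a phosphatase subunit of sporulation, had 0.423 in ATP1-111 cells and 1.90 in WT cells. NEJ1, a factor of DNA end joining, had 0.400 in ATP1-111 cells and 1.67 in WT cells. All of these were lower in ATP1-111 than in WT by the contrast. Of the 10 ORFs chosen from these same 2 columns by the largest opposite ratios, all 10 lay below 1 in ATP1-111 cells. The WT column at 27 h itself had more ORFs at least 2-fold higher (318) than lower (175). Outside the 10, ACO1 and PTR2 lay the other way, at 2.06 and 2.08 in ATP1-111 cells against 0.727 and 0.759 in WT cells.

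The hexose transporters showed a further difference. The 17 measured genes had a median of -0.05 in ATP1-111 cells and 0.53 in WT cells at 27 h, with 0 of 17 at least 2-fold higher in ATP1-111 cells (0.696% of all ORFs were) and 6 of 17 in WT cells (5.13% of all ORFs). HXT2, a high-affinity glucose transporter, had 0.871 in ATP1-111 cells and 8.09 in WT cells. HXT4 had 0.665 in ATP1-111 cells and 3.01 in WT cells, and HXT3, a low-affinity transporter, 1.36 in ATP1-111 cells and 5.54 in WT cells. By the contrast 7 of the 17 were lower in ATP1-111 than in WT, against 4.62% of all ORFs, and 0 higher, although the pair HXT6 and HXT7 is nearly identical and their spots can read both. The glycolytic and fermentation genes lay on the other side. In ATP1-111 cells 14 of 19 were above 1, against 46.4% of all ORFs, with a median of 0.10 in ATP1-111 cells and -0.53 in WT cells. The enolase genes ENO1 and ENO2 had 1.14 and 1.07 in ATP1-111 cells, against 0.616 and 0.578 in WT cells. GLK1, glucokinase, was the highest at 1.76 in ATP1-111 cells and 1.99 in WT cells.

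Of 18 drug efflux genes and other targets of Pdr1 and Pdr3, 14 lay above 1 in ATP1-111 cells, against 46.4% of all ORFs, and 3 were at least 2-fold higher, with a median of 0.42 in ATP1-111 cells and 1.33 in WT cells at 27 h. PDR15, an ABC transporter, had a ratio of 2.89 in ATP1-111 cells, against 0.737, 6.13, 7.79 and 4.29 in WT cells at 3, 11, 19 and 27 h. PDR5, the main multidrug transporter, had 2.40 in ATP1-111 cells, against 1.13, 3.86, 3.96 and 5.23 in WT cells. BDH2, a dehydrogenase, had 2.37 in ATP1-111 cells and 7.16 in WT cells, and RSB1, a sphingoid base transporter just under 2-fold, had 2.00 in ATP1-111 cells and 3.995 in WT cells. The polyamine transporters TPO1 and TPO4 lay below 1 in both, at 0.745 and 0.671 in ATP1-111 cells and 0.560 and 0.606 in WT cells. None of the 18 passed the test against no change in ATP1-111 cells, and 3 were lower than in WT by the contrast.

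Hypoxic and anaerobic genes differed among themselves, and 0 of the 15 tested passed against no change in ATP1-111 cells. DAN1, a cell wall mannoprotein made without oxygen, had a ratio of 3.39 in ATP1-111 cells, against 1.03, 0.941, 10.1 and 13.6 in WT cells at 3, 11, 19 and 27 h. The mannoprotein genes TIR1, TIR2 and TIR4 had 3.13, 2.63 and 2.35 in ATP1-111 cells, against 12.5, 8.23 and 38.2 in WT cells at 27 h. These 4 genes were the only members of the 16 that were at least 2-fold higher in ATP1-111 cells (adjusted p between 0.291 for TIR1 and 0.731 for TIR4, limma). The related mannoprotein genes DAN4, next to DAN1 on the chromosome, and TIR3 had 1.14 and 0.975 in ATP1-111 cells, against 1.56 and 0.863 in WT cells. AUS1, a sterol importer, had 1.30 in ATP1-111 cells and 15.4 in WT cells, and its regulator UPC2 had 1.33 in ATP1-111 cells and 6.73 in WT cells, and both differences passed the test. ROX1, the repressor of hypoxic genes, was among the lowest ORFs of the column, with a ratio of 0.269 in ATP1-111 cells, against 0.782, 0.807, 0.462 and 0.584 in WT cells (adjusted p = 0.151 against no change, limma). ANB1 and HEM13, both textbook targets of Rox1, had 0.912 and 0.857 in ATP1-111 cells. The PAU family, near-identical genes whose spots can read one another, had a median of 0.13 over 23 members in ATP1-111 cells. Of these, 20 lay above 1 (46.4% of all ORFs did) and 0 were at least 2-fold higher (0.696% of all ORFs). In WT cells at 27 h 19 of 23 were at least 2-fold higher (5.13% of all ORFs), with a median of 1.89.

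**Figure D3:**
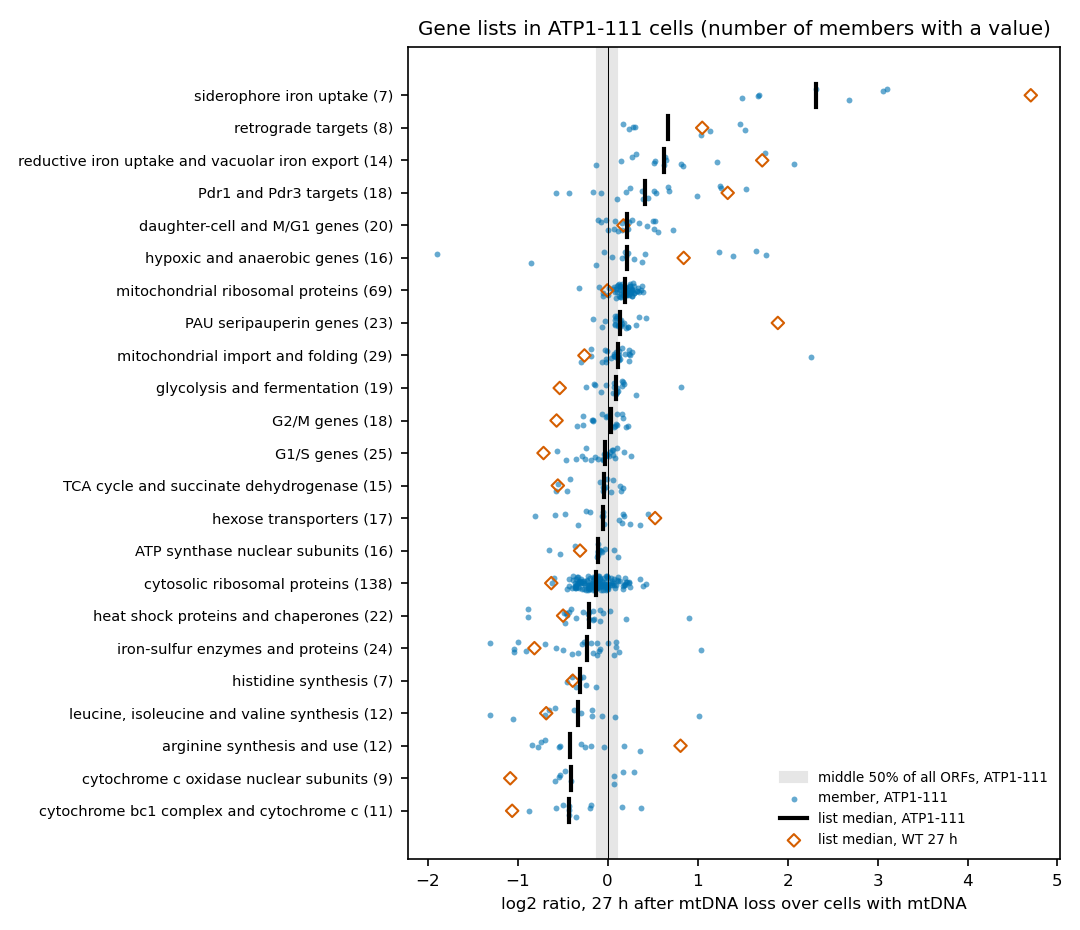
Log2 ratios (horizontal axis) of the members of 23 gene lists in ATP1-111 cells as blue points, with the list median in ATP1-111 as a black bar and the list median in WT cells at 27 h as an open orange diamond. The grey band holds the middle 50% of all ORFs in ATP1-111. Siderophore uptake lies furthest to the right, at a median of 2.31 in ATP1-111 and 4.70 in WT, and the bar for arginine synthesis (-0.41) lies on the opposite side of 0 from its WT diamond (0.81).

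Genes for the ribosomes of the mitochondrion and the cytosol lay on opposite sides of no change. Of 69 mitochondrial ribosomal protein genes, 65 had ratios above 1 in ATP1-111 cells, against 46.4% of all ORFs, with a median of 0.19 in ATP1-111 cells and -0.00 in WT cells at 27 h. The shift was small and even. The highest, MRPL7, had a ratio of 1.31 in ATP1-111 cells and 1.03 in WT cells, the lowest, MRPL19, had 0.801 in ATP1-111 cells and 0.808 in WT cells, and 0 of 69 passed either test. Of 138 cytosolic ribosomal protein genes, 30 lay above 1 and 107 below in ATP1-111 cells (53.3% of all ORFs lay below), with a median of -0.13 in ATP1-111 cells and -0.63 in WT cells. Their range in ATP1-111 cells ran between 0.653 for RPL34A and 1.34 for RPL16B, and 7 of the 137 tested were higher than in WT by the contrast, against 3.09% of all ORFs. Of 29 measured genes of mitochondrial protein import and folding, 21 lay above 1 in ATP1-111 cells, against 46.4% of all ORFs. Their median was 0.11 in ATP1-111 cells and -0.26 in WT cells. Apart from MAS1, all of them lay between 0.813 and 1.20 in ATP1-111 cells.

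Cell cycle genes also stayed near 1. The 25 genes of the G1/S transition had a median of -0.03 in ATP1-111 cells and -0.71 in WT cells at 27 h, and the 18 genes of G2/M had medians of 0.03 in ATP1-111 cells and -0.57 in WT cells. CLN1 and CLN2, the G1 cyclins, had ratios of 0.995 (above 1 once the column was centred) and 0.844 in ATP1-111 cells, against 0.358 and 0.268 in WT cells, and the mitotic cyclin CLB2 had 0.791 in ATP1-111 cells and 0.351 in WT cells. By the contrast 8 of 25 G1/S genes and 7 of 18 G2/M genes were higher in ATP1-111 than in WT, against 3.09% of all ORFs, and 0 lower. Daughter-cell and M/G1 genes lay slightly above 1 in both genotypes. In ATP1-111 cells 17 of 20 were above 1, against 46.4% of all ORFs, with a median of 0.22 in ATP1-111 cells and 0.17 in WT cells. Highest was RME1, a repressor of meiosis, at 1.65 in ATP1-111 cells and 2.29 in WT cells. The chitinase gene CTS1 followed at 1.47 in ATP1-111 cells and 1.63 in WT cells. In bulk RNA of this kind, fewer cells in a phase and less RNA per cell cannot be told apart.

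Set side by side across ORFs, the ATP1-111 column was most like the WT columns of 11 h and later. Pearson's r across ORFs with the WT columns at 3, 11, 19 and 27 h was 0.036, 0.429, 0.508 and 0.468, Spearman's rho was -0.009, 0.353, 0.421 and 0.364, and r with NAR1 repression was 0.087. ORFs are not independent replicates, and the columns share the array design. Of the 43 ORFs at least 2-fold higher in ATP1-111 cells, 28 (65.1%) were also at least 2-fold higher in WT cells at 27 h, which is 8.81% of the 318 ORFs that were so in WT. Of the 23 ORFs at least 2-fold lower in ATP1-111 cells, 3 (13%) were also at least 2-fold lower in WT cells, 1.72% of 174. With NAR1 repression 0 ORFs were shared in either direction. Of the 6176 ORFs compared, that column had only 135 past 2-fold on the higher side and 229 on the lower. With so few, a count of 0 among the 43 and the 23 cannot be told from that of unrelated lists. Looked at from the WT side, the 318 ORFs had a median log2 ratio of 0.26 in ATP1-111 cells, with 256 above 0 (46.4% of all ORFs were). The 174 had a median of -0.25, with 157 below 0 (53.3% of all ORFs were).

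**Figure D4:**
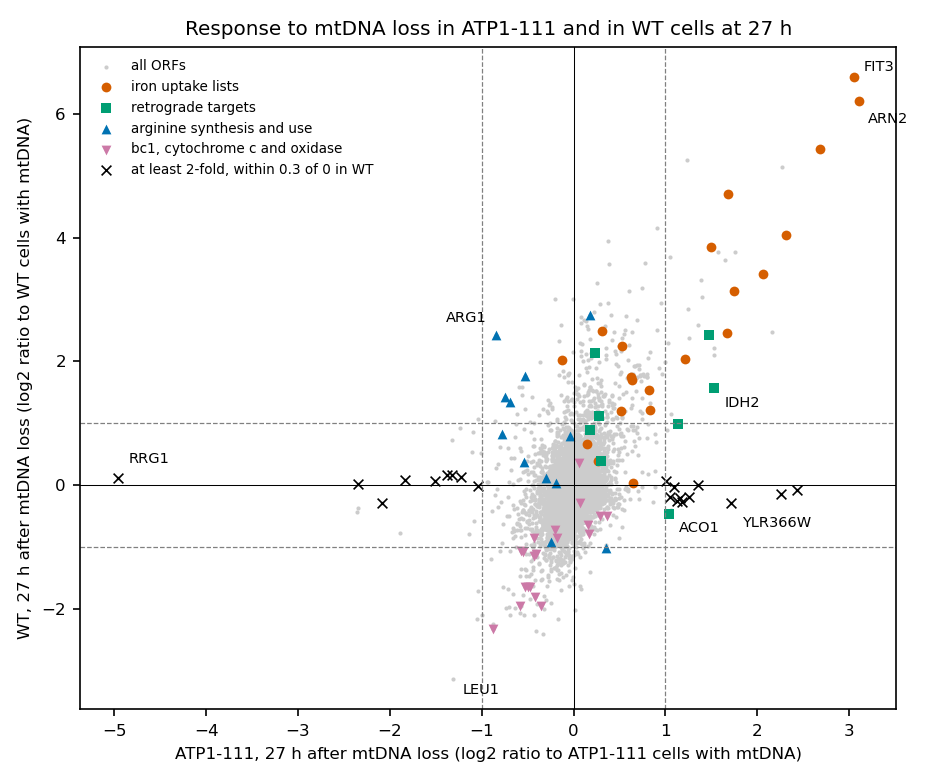
Log2 ratio of each ORF in ATP1-111 cells (horizontal axis) and in WT cells at 27 h (vertical axis), with gene lists in colour and dashed lines at 2-fold. Iron uptake genes lie in the upper right, ARG1 and other arginine genes in the upper left, and ORFs past 2-fold in ATP1-111 but within 0.3 of 0 in WT (crosses) along the horizontal line.

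Some ORFs past 2-fold in ATP1-111 cells were near 1 in WT cells. Of the 43 higher ORFs 11 were within 0.3 of 0 on the log2 scale in WT cells at 27 h. So were 9 of the 23 lower ones. Such values were common in that WT column, where the quartiles of all ORFs were -0.33 and 0.24. The lowest of all was RRG1, a gene needed for respiratory growth, which fell to a ratio of 0.032 in ATP1-111 cells (log2 -4.97, SE 0.212, adjusted p = 0.00822, limma), against 1.03, 1.36, 1.47 and 1.08 in WT cells at 3, 11, 19 and 27 h and 1.07 after NAR1 repression. VPS30, a subunit of phosphatidylinositol 3-kinase complexes in autophagy and vacuolar sorting, fell to 0.197 (log2 -2.34, SE 0.139, adjusted p = 0.0154, limma), against 1.24, 0.966, 1.01 and 1.01 in WT cells. YHR139C-A fell to 0.236 (log2 -2.08, SE 0.114, adjusted p = 0.0154, limma), against 0.567, 0.658, 0.794 and 0.818 in WT cells. YLR366W rose to 5.40 (log2 2.43, SE 0.163, adjusted p = 0.0179, limma), against 0.963, 0.755, 0.959 and 0.946 in WT cells. The call of YLR366W was also lost without WT 27 h. None of these 4 ORFs reached 2-fold in another of the 6 columns, but YHR139C-A lay below 1 in all 6.

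Each of these 4 ORFs had 1 spot on the array, so no second spot checks its value, and their neighbours did not share it. The ORFs on either side of RRG1, RPS13 and RTR2, had log2 ratios of -0.12 and 0.15 in ATP1-111 cells, and those beside YLR366W, YLR365W and RPS22B, had 0.22 and -0.05. Other ORFs of this kind were TCD2, a tRNA-modifying enzyme, at 0.281 in ATP1-111 cells and 1.06 in WT cells, and CSI1, a signalosome subunit, at 0.386 in ATP1-111 cells and 1.13 in WT cells, both lower in ATP1-111 than in WT by the contrast. SWC3, a chromatin remodelling subunit, had 0.351 in ATP1-111 cells and 1.04 in WT cells. Somewhat further from 1 in WT was HUT1, an endoplasmic reticulum sugar-nucleotide transporter, which had 0.195 in ATP1-111 cells and 0.744 in WT cells, a difference that passed the contrast. On the higher side DBF2, a kinase of mitotic exit, had 2.23 in ATP1-111 cells against 0.904, 0.891, 0.930 and 0.864 in WT cells (adjusted p = 0.0641 against no change, limma). PTR2, a peptide transporter, had 2.08 in ATP1-111 cells and 0.759 in WT cells and was higher by the contrast.

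MAS1, the beta subunit of the protease that removes mitochondrial targeting sequences, had a ratio of 4.77 in ATP1-111 cells, against 1.47 and 0.910 in WT cells at 19 and 27 h. It had no value in WT cells at 3 and 11 h and was therefore in no test, while the alpha subunit gene MAS2 had 1.18 in ATP1-111 cells and 1.16 in WT cells at 27 h. SPR3, a septin of sporulation (3.27 in ATP1-111 and 0.822 in WT), and MIT1, a regulator of filamentous growth (0.196 in ATP1-111 and 0.778 in WT), likewise lacked the 2 early WT values. Of the 43 higher ORFs 3 lacked a value in some column, and of the 23 lower ones 1, against 25 of all 6176. Neighbouring ORFs were at least 2-fold higher together in 3 pairs, FIT2 with FIT3, TIR4 with TIR2 and YOR135C with IDH2, and 0 of the 23 lower ORFs had such a neighbour.

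Among the 43, 22 belonged to the iron (11), Pdr (3), retrograde (4) or hypoxic (4) lists. Measured genes numbered 7, 14 and 15 in the iron lists, 18 in the Pdr, 8 in the retrograde and 16 in the hypoxic list. Over all 6176 ORFs 0.696% were at least 2-fold higher, and the lists were chosen with earlier results of these data known. Outside these lists, PBI1 had 4.81 in ATP1-111 cells and 35.3 in WT cells at 27 h, and AMS1, the vacuolar mannosidase, had 4.49 in ATP1-111 cells and 5.58 in WT cells. HES1, a sterol-binding protein, had 2.97 in ATP1-111 cells and 13.6 in WT cells, and VMR1, a vacuolar ABC transporter, had 2.89 in ATP1-111 cells and 4.68 in WT cells. AMS1 had nearly the same ratio in ATP1-111 cells as in WT cells at 19 h (4.38) and differed from the fitted WT level by -0.85 (SE 0.79, adjusted p = 0.508, limma). The 2-fold line itself fell between close values. Just inside it were DUR12, BAT2 and TIS11 on the higher side (2.01, 2.02 and 2.05) and SEO1, BIO2 and REC8 on the lower side (0.498, 0.487 and 0.486). Just outside were RSB1, YHR214C-B and YGP1 (2.00, 1.95 and 1.94) and GLT1, NEL1 and CRR1 (0.501, 0.526 and 0.521).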

How the data were processed

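Per the labels, each value is the authors' average over 5 (ATP1-111) or 6 2-colour arrays of the ratio of channel 2 (treated cells) to channel 1 (control cells of the same strain), deposited as linear ratios in one table of 6259 rows and 6 columns. The direction follows the sample titles. Per the labels' protocols, acid phenol gave total RNA, and an oligo(dT) primer started the cDNA. The scanner, background correction, normalization and kind of average are not given in the sources used here, nor is whether one control RNA served several WT times.

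After 28 control rows were set aside, ratios were taken to log2 and both spots of 13 ORFs averaged. Symbols came from RefSeq's R64 gene table (5698 matched, 500 kept the systematic name), and chromosomes were read from systematic names. limma 3.58.1 (R 4.3.3) was fitted to the 6151 ORFs with values in all 6 columns, with terms for the WT line (its value at 27 h and its slope over hours), for ATP1-111 and for NAR1 repression. The spread came from 2 residual degrees of freedom, moderated with 3.35 prior ones. A curved WT time course therefore counts as noise. P-values were two-sided and adjusted by Benjamini-Hochberg with a threshold of 0.05. The fit was also run on simulated data, drawn around straight WT lines with the same spread given to the ATP1-111 column. That run therefore cannot check either of these assumptions. P-values measure scatter between averaged columns, not between biological replicates.

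The members, 50 gene lists and tests were chosen with earlier results of these data known. Of 937 distinct list genes 930 had a row and 928 an ATP1-111 value. Named genes were the 20 highest and 15 lowest ORFs, those called against no change, at most 4 genes of any list, by size of ratio, the 10 ORFs with the largest ratios on the same and on opposite sides of 1 in WT, 10 near 1 in WT, and those next to 2-fold; other list members and neighbours were named after their values were seen. Some genes that this rule would name are not reported here. A search for promoter motifs was not run, since promoter sequences were not used here. Alternatives covered the time scale, the WT columns used, moderation, centring, scaling, missing values and spots.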

Additional observations from a re-analysis of the deposited data

Results flagged for a closer look

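The response to mtDNA loss differed between ATP1-111 and WT cells by limma's contrast for 190 ORFs that were higher in ATP1-111 and 284 that were lower, and the genes named here are those among them that the text describes. All differences are log2 values of ATP1-111 less the WT line at 27 h, and all lost the call without the WT column at 19 h. Among iron genes the difference was -3.87 for FIT3, -3.17 for ARN1, -3.05 for FIT1, -2.56 for ENB1 and -2.13 for SIT1. In the list for reductive uptake and vacuolar export, which also holds the low-affinity transporter FET4, it was -2.59 for FRE5, -2.44 for FET4 and -1.82 for FTH1. There it was also -1.51 for FET3, -1.38 for FRE2, -1.22 for FRE6 and -1.19 for FET5. The difference was -1.44 for ISU1 and -1.17 for NAR1, and positive for YFH1 (0.88) and CCC1 (0.91).

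In amino acid and vitamin genes the difference was -3.14 for ARG1, -2.56 for CPA1, -2.09 for ARG56 and -3.02 for BIO5, and 1.51 for CAR2 and 1.45 for ILV3. Among transporters it was -3.17 for HXT2, -2.44 for HXT4, -2.32 for HXT3, -1.68 for HXT7, -1.63 for HXT6, -2.41 for ZRT1, -2.26 for MAL11, -1.31 for SEO1 and 1.36 for PTR2. In lipid and hypoxic genes it was -3.24 for AUS1, -2.26 for UPC2 and -1.84 for OLE1, and 0.90 for HMG1 and 1.54 for ERG11. CIT2 differed by -1.99, AAC1 by -0.97 and STF2 by -0.96. Respiratory genes were higher in ATP1-111, by 1.51 for CYT1, 1.35 for COX4, 1.17 for COX6, 1.16 for COX5A, 1.12 for RIP1, 1.08 for SDH1, 0.91 for KGD2 and 0.75 for CYC1. The same held for ENO1 and ENO2 (0.88 each) and for the cyclin genes CLN2 (1.71), CLN1 (1.29) and CLB2 (1.25).

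Of ORFs outside these groups, RRG1 differed by -5.31, VPS30 by -2.30, REC8 and GIP1 by -1.95 each, TCD2 by -1.92, NEJ1 by -1.87, YHR139C-A by -1.85, HUT1 by -1.73, CSI1 by -1.55, PRM1 by -1.08, NEL1 by -0.90 and YHR214C-B by -0.78. YLR366W was higher in ATP1-111 by 2.54 and DBF2 by 1.34. The control spots, which no comparison used, also stood out in ATP1-111, with a median ratio of 1.98 over the non-yeast spots and a highest ratio of 8.29 for a buffer spot.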

How the results depend on the processing

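The count of ORFs called against no change in ATP1-111 (4 higher and 3 lower, of which all 7 also passed with centring, with scaling, with at least 3 WT columns required, with spots kept apart and without WT 3 h) moved with the spread. It was 0 and 0 by ordinary least squares (175 and 234 at an unadjusted p under 0.05), 6 and 5 with log2 hours (where 4 of the 7 still passed and FIT1, FRE2 and FET3 did not, at adjusted p of 0.348, 0.161 and 0.0765, limma), and 113 and 97 after scaling the columns to one spread. Without the WT column at 3 h it was 27 and 14, without 11 h 5 ORFs were lower, without 19 h it was 0 and 0 (187 and 233 at an unadjusted p under 0.05, limma), and without 27 h 2 were higher. The contrast with WT moved from 190 higher and 284 lower in ATP1-111 to 42 and 95 with log2 hours, 0 and 0 by ordinary least squares (632 and 549 unadjusted), 5 and 26 after scaling, and 367 and 465, 93 and 176, 0 and 0 (678 and 749 unadjusted), and 23 and 61 without the 3, 11, 19 or 27 h column. Against no change, FIT1, FRE2, FET3 and YLR366W all lost the call without WT 27 h, so the ORFs called higher there were different ones. Fewer WT columns leave fewer residual degrees of freedom, and other causes of the moves in these counts were not tested. Scaling stretches the narrow ATP1-111 column, so 128 and 82 ORFs were then at least 2-fold higher and lower, and the list medians became 4.02 for siderophore uptake, 1.12 for reductive iron uptake, 1.19 for retrograde targets, 0.75 for Pdr targets, -0.71 for bc1 and cytochrome c, and -0.69 for both cytochrome oxidase and arginine genes. Without its largest member a list median moved to 2.00 for siderophore uptake, 0.30 for retrograde targets and -0.17 for cytochrome oxidase. The ATP1-111 column has its own term in the fit, so the alternatives could not reverse a ratio that passed the test against no change. For those ORFs only centring and scaling altered the estimate, and the other alternatives altered its SE and p-value alone. Centring the ATP1-111 column on its median (-0.02) took 2 named genes just below 1, CIA2 and CLN1, to 0.01 above 0 on the log2 scale, put 49.9% of all ORFs above 0 against 46.4% as deposited, and moved no count of called ORFs by over 1.5 times. No paired analysis was possible because each group is 1 averaged column; replicates averaged by the authors could not be left out in turn either. Signal over background did not come with the ratios.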

Other observations

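All 10 genes of the mevalonate pathway lay below 1 in ATP1-111 cells, against 53.3% of all ORFs, with a median log2 ratio of -0.22 in ATP1-111 cells and -0.99 in WT cells at 27 h, and HMG1, the main HMG-CoA reductase, had a ratio of 0.736 in ATP1-111 cells and 0.388 in WT cells. Of the 14 genes that turn squalene into ergosterol, 8 lay above 1 in ATP1-111 cells, near the 46.4% of all ORFs, with a median of 0.07 in ATP1-111 cells and -0.33 in WT cells. The difference between these 2 lists was not tested. The lowest of them was ERG11, the haem-dependent demethylase, with 0.720 in ATP1-111 cells and 0.278 in WT cells. Heat shock and chaperone genes were mostly below 1, 19 of 22 in ATP1-111 cells against 53.3% of all ORFs, with a median of -0.21 in ATP1-111 cells and -0.50 in WT cells. The extremes were the small heat shock protein HSP26, with 1.88 in ATP1-111 cells and 17.8 in WT cells, and SSA4, an inducible Hsp70 gene, with 0.542 in ATP1-111 cells and 0.752 in WT cells. Glycogen and trehalose genes lay the other way, 12 of 15 above 1 in ATP1-111 cells against 46.4% of all ORFs, with a median of 0.13 in ATP1-111 cells and 0.33 in WT cells, and the branching enzyme gene GLC3 had 1.56 in ATP1-111 cells and 1.86 in WT cells.

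With 0.696% of all ORFs at least 2-fold higher in ATP1-111 cells and 0.372% at least 2-fold lower, most lists held 0 members past 2-fold, and the counts of 0 in the following lists are near that background. They were the purine genes (median -0.10 in ATP1-111 cells and -0.82 in WT cells), lysine synthesis (-0.10 in ATP1-111 and 0.11 in WT), sulfate assimilation and methionine (-0.10 in ATP1-111 and -0.28 in WT), and the proteasome (0.03 in ATP1-111 and -0.01 in WT). The phosphate (0.03 in ATP1-111) and zinc (-0.21 in ATP1-111) genes belonged with them. The zinc transporter gene ZRT1 had 0.779 in ATP1-111 cells and 3.97 in WT cells. Ribosome biogenesis genes had a median of -0.06 in ATP1-111 cells and 0.22 in WT cells, with 23 of 37 below 1 in ATP1-111 cells (53.3% of all ORFs were). Of 24 haploid and mating genes 0 were past 2-fold in ATP1-111 cells, and the lowest, PRM1, had 0.564 in ATP1-111 cells and 1.27 in WT cells. The stress-induced genes YGP1 and XBP1 had 1.94 and 1.58 in ATP1-111 cells, against 7.67 and 3.79 in WT cells.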
